A study of Homo sapiens with 5 samples.

Results

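The 43 genes described here encode the machinery of mitosis: its kinases and cyclins, the spindle checkpoint, kinetochore proteins, spindle motors, cytokinesis factors and the partners of the anaphase-promoting complex. They were chosen by gene symbol, through the platform annotation of the array, from 20041 genes, with earlier results of these data known. Shares over all genes are therefore set beside theirs as a description only. Of the 47299 probes 62 carry a symbol of the 43 genes. All come from H1, an established line of human embryonic stem cells, in which mesoderm had been induced in every condition, the control included, with CHIR99021, a compound that switches on canonical WNT signaling by blocking the kinase GSK3. From day 2 to day 5 the cells then received IWP2, which blocks WNT secretion through Porcupine, LY294002, an inhibitor of phosphoinositide 3-kinase (PI3K), insulin, or IWP2 together with LY294002, while control cells stayed in basal differentiation medium. RNA was taken on day 10, and each of the 5 conditions has 1 array, so no difference below could be set against the spread between replicates and none has a p-value.

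Cells enter mitosis when cyclin B and CDK1 become active, and they leave it when the anaphase-promoting complex, with CDC20, marks cyclin B and securin for destruction. Between these points kinetochores attach to the spindle under the watch of the checkpoint kinases, and Aurora B with its passenger partners corrects faulty attachments and later directs cytokinesis. Most of these genes are transcribed in the G2 phase under the MuvB complexes with MYBL2 and FOXM1, which act through promoter elements known as CHR elements and CCAAT boxes. Their summed transcript level in a culture is widely read as a sign of how many cells are dividing. In a bulk sample such as these, fewer dividing cells and less transcript per dividing cell cannot be told apart.

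Sequence around the start site is shown for 6 members whose signal was lower with both inhibitors (CDC20, KIF20A, CCNB1, CCNB2, PLK1 and PRC1) and 3 that were close to the control (BUB1B, KIF11 and ANLN), to set promoters of both kinds side by side. Each line runs 5′ to 3′ on the strand of the gene from 100 bases before to 20 bases after the annotated start (RefSeq, GRCh38.p14), and capitals mark, on either strand, the CHR letters TTTGAA or the variant with TTTAAA, and the letters CCAAT.
CDC20 (chr1:43358881-43359000, plus strand): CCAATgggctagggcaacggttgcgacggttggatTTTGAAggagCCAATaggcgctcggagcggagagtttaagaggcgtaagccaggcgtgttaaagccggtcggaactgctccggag
KIF20A (chr5:138179012-138179131, plus strand): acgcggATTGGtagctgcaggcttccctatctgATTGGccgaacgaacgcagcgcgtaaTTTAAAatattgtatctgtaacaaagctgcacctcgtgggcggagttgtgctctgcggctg
CCNB1 (chr5:69167050-69167169, plus strand): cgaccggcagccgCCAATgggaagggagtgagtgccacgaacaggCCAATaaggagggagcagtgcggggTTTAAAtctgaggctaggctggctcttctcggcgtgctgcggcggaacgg
CCNB2 (chr15:59105046-59105165, plus strand): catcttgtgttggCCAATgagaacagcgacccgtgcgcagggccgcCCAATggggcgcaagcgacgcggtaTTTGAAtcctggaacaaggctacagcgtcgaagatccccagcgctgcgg
PLK1 (chr16:23678789-23678908, plus strand): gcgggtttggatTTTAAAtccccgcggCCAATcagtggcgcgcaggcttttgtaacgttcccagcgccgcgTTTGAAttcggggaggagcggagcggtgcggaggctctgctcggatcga
PRC1 (chr15:90994516-90994635, minus strand): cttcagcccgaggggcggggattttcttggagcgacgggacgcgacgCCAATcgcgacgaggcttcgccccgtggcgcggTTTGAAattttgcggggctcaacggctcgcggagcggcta
BUB1B (chr15:40160969-40161088, plus strand): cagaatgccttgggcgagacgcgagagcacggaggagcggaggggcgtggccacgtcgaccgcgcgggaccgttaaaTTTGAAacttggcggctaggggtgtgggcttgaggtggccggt
KIF11 (chr10:92593030-92593149, plus strand): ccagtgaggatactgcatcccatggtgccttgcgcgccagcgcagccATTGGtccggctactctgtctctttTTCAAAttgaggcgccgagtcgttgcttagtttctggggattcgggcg
ANLN (chr7:36389762-36389881, plus strand): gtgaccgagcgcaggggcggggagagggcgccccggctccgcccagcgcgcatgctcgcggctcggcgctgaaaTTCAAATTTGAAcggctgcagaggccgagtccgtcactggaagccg

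Promoters of 300 bases (250 before to 50 after the start) were matched by symbol for 38 of the 43 members, all except AURKA, TTK, TPX2, UBE2C and BIRC5. On the opposite strand TTTGAA reads TTCAAA and CCAAT reads ATTGG, and TTTAAA reads the same on both. TTTGAA or TTTAAA, on either strand, stood in 33 of these 38 (86.8%), against 6625 of 27305 promoters in the table (24.3%). TTTGAA alone was in 28 members (73.7%) against 15.4% of all promoters, TTTAAA in 12 (31.6%) against 12.3%, and CCAAT, on either strand, in 30 members (78.9%) against 35.7%. Both kinds of letters occurred together in 25 members (65.8%), against 9.49% of all promoters. Of the members at least 2-fold lower with both inhibitors 14 of 16 had one of the CHR letters (87.5%), as did 13 of 15 detected members within 2-fold of the control (86.7%). CCAAT stood in 14 of the 16 lower members (87.5%) and 10 of the 15 within 2-fold (66.7%), and TTTAAA in 6 (37.5%) and 3 (20%). CHR letters and CCAAT together were in 12 of the 16 (75%) and 8 of the 15 (53.3%), and among the printed promoters those of BUB1B and ANLN hold no CCAAT. These shares rest on few promoters and their differences were not tested. The control log2 signals of BUB1B (5.98), CENPE (6.20) and KIF15 (6.26) were less than 2-fold above the lowest detected signal of the double-inhibitor array (5.46). These 3 could therefore not count as 2-fold lower while detected, and their place among the members within 2-fold is limited by that. Counted from the annotated start to the leftmost base, the letters lay at -29 in PLK1 and CCNB2 and at -30 in CCNB1. KIF20A had TTTAAA at -41, PRC1 TTTGAA at -20 and CDC20 TTTGAA at -65 with CCAAT at -55. A match of letters is a description and does not show that a factor binds there.

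Signals are normalized log2 intensities of each gene's brightest probe, and a probe with a detection p-value under 0.01 counted as detected. Levels of different genes are not compared, since each probe has its own brightness. Of the 43 members 34 were detected on all 5 arrays, 8 on some, and MKI67, which encodes the proliferation antigen Ki-67, on none. MKI67 has a single probe, whose signal lay between 4.38 and 4.69, below the lowest detected signals of the arrays (5.27 to 5.49), so it gives no information on the cultures. Members detected numbered 42 with IWP2, 39 with LY294002, 41 with insulin, 36 with both inhibitors and 42 in the control. The labels call the cells embryonic stem cells, but at day 10 the pluripotency markers were mixed. Of 9 measured, POU5F1 and NANOG were not detected on any array, LIN28A, LIN28B, DNMT3B and PODXL were detected on all 5, DPPA4 and ZFP42 on every array except the double-inhibitor one, and SOX2 on that array alone. Cardiomyocyte and liver genes were detected on every array.

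**Figure D1:**
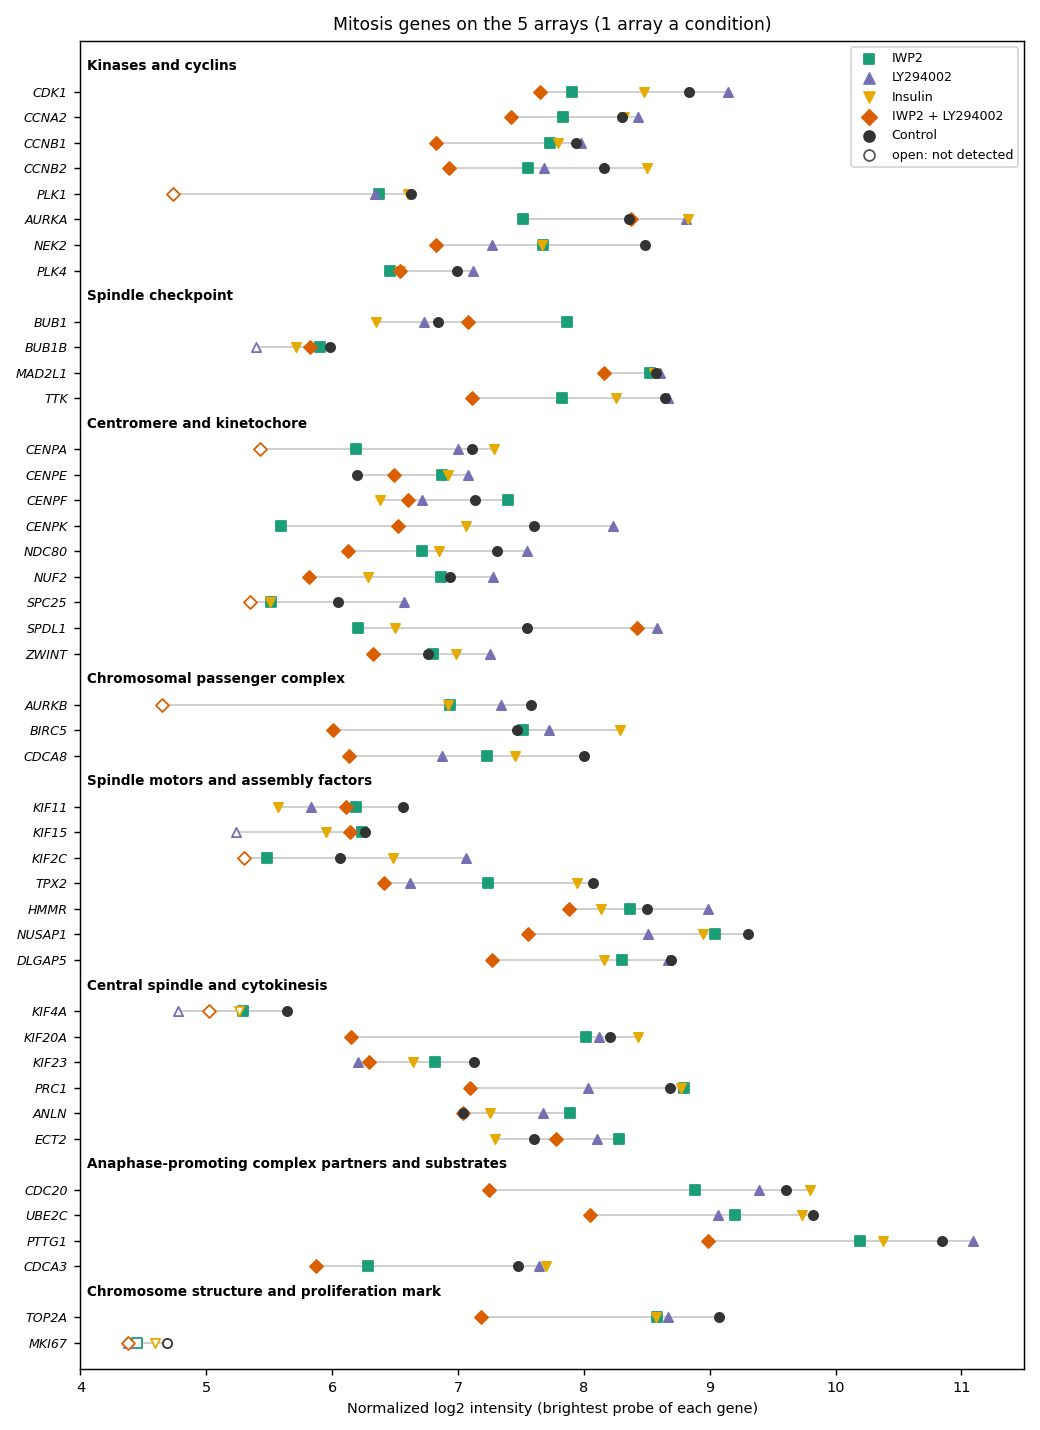
Normalized log2 intensity of each mitosis gene (rows, grouped by role) on the IWP2, LY294002, insulin, IWP2 + LY294002 and control arrays, 1 array a condition, with open symbols where the probe was not detected. The orange diamonds of the double-inhibitor array lie leftmost for most genes. Those that do not follow that order are SPDL1, AURKA, BUB1, ECT2, CENPE, PLK4, CENPK, CENPF, KIF11, KIF23, BUB1B, KIF15 and KIF4A.

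With IWP2 and LY294002 together, mitosis genes were lower than in the control across most roles. Among 36 members with a detected signal on both arrays, 20 were lower by 2-fold or more (55.6%) and 0 were 2-fold higher, where the share among all 7858 genes so detected was 10.9% lower and 12% higher. The members' median difference was -1.12 on the log2 scale against 0.06 for all genes, and 31 of the 36 were below 0 (86.1%, against 47.0% of all genes). Another 6 members were detected in the control and not with both inhibitors. That is 14.3% of the members detected in the control, close to the 15.4% found over all genes. Without background correction 12 members were past 2-fold in place of 20, where 5.92% of all genes were. Just past the 2-fold line stood CENPK (-1.08), and just inside it CCNA2 (-0.88).

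The 4 genes around the anaphase-promoting complex were all at least 2-fold lower with both inhibitors. CDC20, the coactivator that opens anaphase, read 8.88 with IWP2, 9.39 with LY294002, 9.80 with insulin, 7.25 with both inhibitors and 9.61 in the control. It was thus 5.14-fold lower with both inhibitors than in the control, the largest difference among members detected on both arrays. PTTG1, which encodes securin, the inhibitor of separase, read 10.20 with IWP2, 11.09 with LY294002, 10.38 with insulin, 8.99 with both inhibitors and 10.84 in the control, a 3.62-fold lower signal with both. For UBE2C, the ubiquitin-conjugating enzyme of the complex, the values were 9.20 with IWP2, 9.06 with LY294002, 9.73 with insulin, 8.05 with both and 9.82 in the control. CDCA3, a mitotic entry factor degraded in G1, stood out in that IWP2 alone also took it past 2-fold: it read 6.28 with IWP2, 7.65 with LY294002, 7.70 with insulin, 5.87 with both and 7.47 in the control.

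Of the kinases and cyclins, 4 of 7 detected members were past 2-fold with both inhibitors. CDK1, the kinase that drives entry into mitosis, read 7.90 with IWP2, 9.14 with LY294002, 8.48 with insulin, 7.65 with both and 8.83 in the control. Its partner CCNB1 (cyclin B1) read 7.73, 7.97 and 7.80 with IWP2, LY294002 and insulin, 6.82 with both inhibitors and 7.94 in the control. CCNB1 was thus within 0.21 of the control on each of the other treated arrays and 1.12 below it only with both inhibitors. CCNB2 (cyclin B2) was 1.23 below the control and CCNA2 (cyclin A2), which acts from S phase to early mitosis, 0.88 below it. NEK2, a centrosome kinase, was lower on every treated array, by 0.81 with IWP2, 1.22 with LY294002, 0.82 with insulin and 1.67 with both inhibitors. PLK1, the Polo kinase of centrosomes and kinetochores, was detected with IWP2 (6.37), LY294002 (6.34), insulin (6.60) and in the control (6.63), and not with both inhibitors, where it was at least 2.25-fold lower than in the control. AURKA (Aurora A), which matures centrosomes, read 8.38 with both inhibitors and 8.36 in the control. PLK4, the kinase of centriole duplication, was lower by less than 2-fold, with 6.54 for both inhibitors and 6.99 for the control.

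All 3 members of the chromosomal passenger complex were lower with both inhibitors. AURKB (Aurora B), its kinase, read 6.93 with IWP2, 7.34 with LY294002, 6.92 with insulin and 7.58 in the control and was not detected with both inhibitors, at least 4.34-fold below the control. BIRC5 (survivin) read 7.52 with IWP2, 7.72 with LY294002, 8.29 with insulin, 6.01 with both inhibitors and 7.47 in the control. Only the double-inhibitor array lay below the control for BIRC5. CDCA8 (borealin) read 7.23 with IWP2, 6.87 with LY294002, 7.45 with insulin and 6.14 with both inhibitors, and each treated array lay below the control, the double-inhibitor array by 1.86.

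Genes of the central spindle and of cytokinesis were split. KIF20A, the kinesin that carries the passenger complex to the central spindle, read 8.02 with IWP2, 8.12 with LY294002, 8.43 with insulin, 6.15 with both inhibitors and 8.21 in the control. The single treatments stayed within 0.23 of the control, and the double-inhibitor array was 4.15-fold below it. PRC1, which bundles antiparallel microtubules, read 8.80 with IWP2, 8.03 with LY294002, 8.78 with insulin, 7.10 with both inhibitors and 8.68 in the control. KIF23, the motor of centralspindlin, was 0.84 lower with both inhibitors, no further than with LY294002 alone (-0.92). ANLN (anillin), which organizes the contractile ring, read 7.04 with both inhibitors and 7.04 in the control, and ECT2, the exchange factor that activates RhoA at the furrow, 7.78 with both inhibitors and 7.61 in the control. KIF4A was detected with IWP2 and in the control alone, both times near the lowest detected signal.

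Of the spindle motors and assembly factors 3 of 6 detected members were past 2-fold. TPX2, the activator of Aurora A on the spindle, read 7.24 with IWP2, 6.62 with LY294002, 7.95 with insulin, 6.41 with both inhibitors and 8.07 in the control. Most of that difference was already there with LY294002 alone. NUSAP1, which links microtubules to chromatin, read 9.04 with IWP2, 8.51 with LY294002, 8.95 with insulin, 7.56 with both inhibitors and 9.30 in the control. DLGAP5, a stabilizer of kinetochore fibres, was 1.42 below the control with both inhibitors and 0.03 below it with LY294002. HMMR, a spindle assembly factor, was 0.62 lower with both inhibitors. The mitotic kinesins KIF11 (-0.45) and KIF15 (-0.11), which slide spindle poles apart, lay closer to the control. KIF2C, a kinesin that depolymerizes microtubules, was detected on every array except the double-inhibitor one (5.49 with IWP2, 7.06 with LY294002, 6.49 with insulin and 6.06 in the control).

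Kinetochore and checkpoint genes were the most mixed. In the outer kinetochore NDC80 and NUF2, which bind microtubules together, were 1.18 and 1.12 lower with both inhibitors, and SPC25 of the same complex was not detected there, at least 1.5-fold below the control. CENPA, the histone H3 variant that marks centromeres, was not detected with both inhibitors, at least 3.14-fold below the control (7.11). By the same probe IWP2 differed from the control by -0.93, LY294002 by -0.11 and insulin by 0.18, while a second CENPA probe differed by -1.15 with IWP2 and 1.24 with insulin and was not detected with LY294002 or with both inhibitors. CENPK, a subunit of the inner kinetochore, was lowest with IWP2 alone, reading 5.60 with IWP2, 8.23 with LY294002, 7.07 with insulin, 6.52 with both inhibitors and 7.60 in the control. SPDL1, the adaptor that brings dynein to kinetochores, ran the other way from most members, with 6.20 for IWP2, 8.58 for LY294002, 8.42 for both inhibitors and 7.55 for the control, and insulin 1.05 below the control. It was high on the arrays that had LY294002 and low on the IWP2 and insulin arrays. Of the checkpoint genes, TTK, the kinase that starts the checkpoint signal, was 1.54 lower with both inhibitors, MAD2L1 0.41 lower and BUB1B 0.16 lower, while BUB1 read 7.08 with both inhibitors and 6.84 in the control. CENPE, CENPF and ZWINT differed by 0.29, -0.53 and -0.44. TOP2A, the topoisomerase that untangles sister chromatids, read 8.58 with IWP2, 8.67 with LY294002, 8.58 with insulin, 7.18 with both inhibitors and 9.07 in the control, 3.71-fold lower with both.

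**Figure D2:**
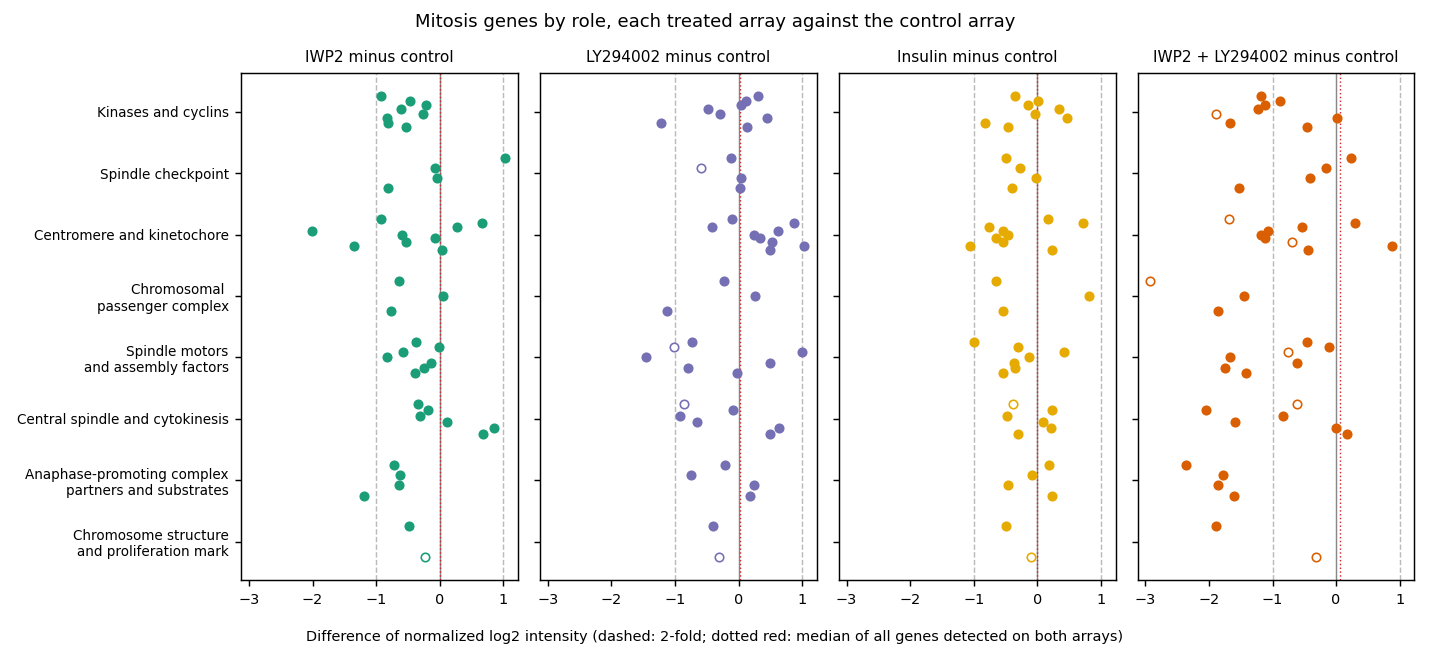
Difference of normalized log2 intensity of each mitosis gene between a treated array and the control array, by role, with open circles where the gene was not detected on one or both arrays, dashed lines at 2-fold and a dotted line at the median of all genes detected on both arrays. In the last panel all 4 anaphase-promoting complex partners lie left of the 2-fold line, as do 20 of the 36 detected members in all.

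With either inhibitor alone fewer members were past 2-fold. With IWP2 3 of 42 members were at least 2-fold lower (7.14%) and 1 higher, close to the background of 7.7% lower and 6.94% higher among 8414 genes. The members' median with IWP2 was -0.43 against 0.00 for all genes, and 34 of the 42 were below 0. No member was detected in the control and not with IWP2 (0%, against 9.45% of all genes). The 3 lower members were CENPK (-2.01), SPDL1 (-1.34) and CDCA3 (-1.19), and the 1 higher was BUB1 (1.03), which was no longer past 2-fold under 4 of the alternative settings. With LY294002 the median was 0.03 against 0.02 for all genes, and 18 of 39 members were below 0 (46.2%, against 48.5% of all genes). Of the 39 members 3 were at least 2-fold lower (7.69%, against 10.2% of 7793 genes) and 2 higher (5.13%, against 9.02%). TPX2 (-1.45), NEK2 (-1.22) and CDCA8 (-1.13) were the 3 lower members, and SPDL1 (1.03) and KIF2C, just past the line, the 2 higher ones. BUB1B, KIF15 and KIF4A were detected in the control and not with LY294002 (7.14%, against 16.1% of all genes). LY294002 was the array with the highest reading for 14 of the 34 members detected on all 5 arrays (41.2%), where it was highest for 21.7% of all such genes. Under 75th percentile scaling the LY294002 median of the members was -0.17, 0 members were 2-fold higher, and the median of all genes itself moved to -0.09.

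Insulin, which activates PI3K through its receptor, gave the fewest members past 2-fold. The members' median was -0.31 against 0.00 for all genes, and 28 of 41 members were below 0 (68.3%, against 50.2% of all genes). Of the 41 members 1 was at least 2-fold lower (2.44%, against 1.88% of 8680 genes), with 0 higher (against 1.71%). KIF4A was detected in the control and not with insulin (2.38%, against 6.59% of all genes). The lower member was SPDL1 (-1.05), followed by KIF11 (-0.99), NEK2 (-0.82) and CENPF (-0.76). On the other side BIRC5 was 0.82 above the control and CENPE 0.72. CENPE depends on the probe here too, since its second probe differed by -0.72 with insulin. CDC20, KIF20A, CDCA3 and CCNB2, all lower with both inhibitors, read 0.19, 0.23, 0.23 and 0.33 above the control with insulin. More of the 2-fold lower members with both inhibitors lay below the control with insulin, among them NUF2 (-0.65), CDCA8 (-0.55) and DLGAP5 (-0.54). The 4 comparisons above share 1 control array, and any error in it is common to them.

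Setting the double-inhibitor array against each inhibitor alone leaves the control array out. The same double-inhibitor array still enters every comparison made with it, and any error in it is common to them. Against IWP2, 11 of 36 members were at least 2-fold lower (30.6%, background 3.45%) and 1 higher (2.78%, background 2.96%), with a median of -0.67 against 0.02 for all genes. KIF20A (-1.87), PRC1 (-1.70), CDC20 (-1.64), BIRC5 (-1.51) and NUSAP1 (-1.48) were the lowest of those detected on both, and SPDL1 was higher by 2.22. The 6 members lost with both inhibitors were all detected with IWP2 (14.3%, against 12.5% of all genes). Against LY294002, 16 of 34 members were at least 2-fold lower (47.1%, background 4.37%) and 0 higher (background 5.92%), with a median of -0.94 against 0.00 for all genes. CDC20 (-2.14), PTTG1 (-2.10), KIF20A (-1.96), CDCA3 (-1.77) and BIRC5 (-1.71) were furthest down, and 5 more were detected with LY294002 and not with both inhibitors (12.8%, against 8.9% of all genes). Conversely BUB1B and KIF15 were detected with both inhibitors and not with LY294002, at least 1.27-fold and 1.58-fold higher with both. Without background correction these counts were 6 against IWP2 and 8 against LY294002. In AURKB the double-inhibitor signal was at least 2.78-fold below IWP2 and at least 3.68-fold below LY294002. Of the 34 members detected on all 5 arrays, 24 had their lowest reading on the double-inhibitor array (70.6%), which was the lowest for 22.9% of the 7110 genes detected on all arrays.

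The 2 by 2 layout of IWP2 and LY294002 allows the difference seen with both to be set against the sum of the single differences. For the 34 members detected on the 4 arrays the double-inhibitor difference was below that sum by a median of 0.68 (two-by-two difference -0.68), against -0.03 for 7271 genes. It was negative in 26 of the 34 members and in 3741 of the 7271 genes. In 10 members the two-by-two difference was -1 or lower, where 9.63% of all genes were. These were KIF20A (-1.78), BIRC5 (-1.76), ANLN (-1.48), PTTG1 (-1.46), CDC20 (-1.42), NUF2 (-1.39), CENPE (-1.25), PRC1 (-1.05), ECT2 and TOP2A. For ANLN, CENPE and ECT2 each inhibitor alone read above the control, in ANLN by 0.85 with IWP2 and 0.64 with LY294002, and both together lay below the sum of these. CENPE depends on the probe, since its second probe read 1.32 below the control with IWP2 (difference -1.32) and was not detected with LY294002, so its two-by-two value holds for the brightest probe alone. SPDL1 alone was past 1 in the other direction (1.18, against 8.33% of all genes). CDCA8 (0.04), PLK4 (-0.05) and CCNB2 (-0.14) lay near the sum, and for TPX2 (0.62) and KIF11 (0.65) the double-inhibitor array was above it. PTTG1 and KIF11 also depend on the probe. The second PTTG1 probe differed from the control by -0.26 with IWP2, -0.45 with LY294002 and -1.15 with both. By that probe its two-by-two value was smaller in size. The second KIF11 probe differed by 0.57, -0.54 and -0.51 in the same order, so by that probe the double-inhibitor array was below the sum. With 1 array a condition these values carry the error of 4 arrays and were not tested.

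**Figure D3:**
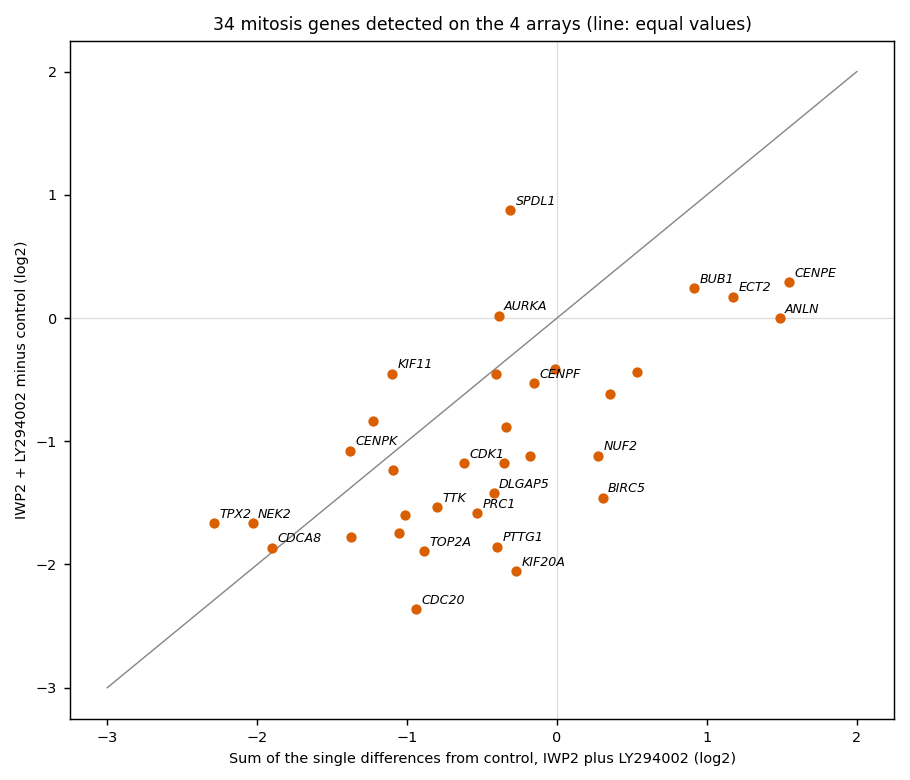
Log2 difference of IWP2 + LY294002 from control (vertical) against the sum of the IWP2 and LY294002 differences from control (horizontal) for the 34 mitosis genes detected on all 4 arrays, with a line at equal values. KIF20A, CDC20, PTTG1 and BIRC5 lie well below the line, SPDL1 above it, all by the brightest probe.

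The arrays hold a second reading for some members. For the 10 members with 2 probes detected on both the double-inhibitor and control arrays, the signs of the 2 probes were the same in 7, and in 73.5% of 1524 such genes overall. The absolute gap between the 2 probes' differences had a median of 0.42 over all genes and a 95th percentile of 1.27. Both probes were read on the same 2 arrays, so this gap does not measure the spread between replicates. NUSAP1 (-1.74 and -1.35) and PTTG1 (-1.86 and -1.15) were past 2-fold by both probes, while for CDK1 (-1.18 and -0.82) and DLGAP5 (-1.42 and -0.84) the second probe fell short of it. The probes of CENPE (0.29 and -0.90) and ZWINT (-0.44 and 0.72) disagreed in sign. For AURKA the 2 probes were 0.02 and -0.28 with both inhibitors and disagreed more with LY294002 (0.45 and -1.01) and insulin (0.47 and -1.10), so its single-agent values depend on the probe. Between IWP2 and the control the signs were the same in 6 of 12 members (50%, against 67.8% of 1641 genes). Between both inhibitors and IWP2 they were the same in 7 of 10 (63.7% of all such genes). Of these 10, 3 were past 2-fold lower by the brightest probe and 0 by both probes. Between both inhibitors and LY294002 the signs were the same in 8 of 9 (66.1% of all such genes). There 4 were past 2-fold lower by the brightest probe and 2 by both.

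**Figure D4:**
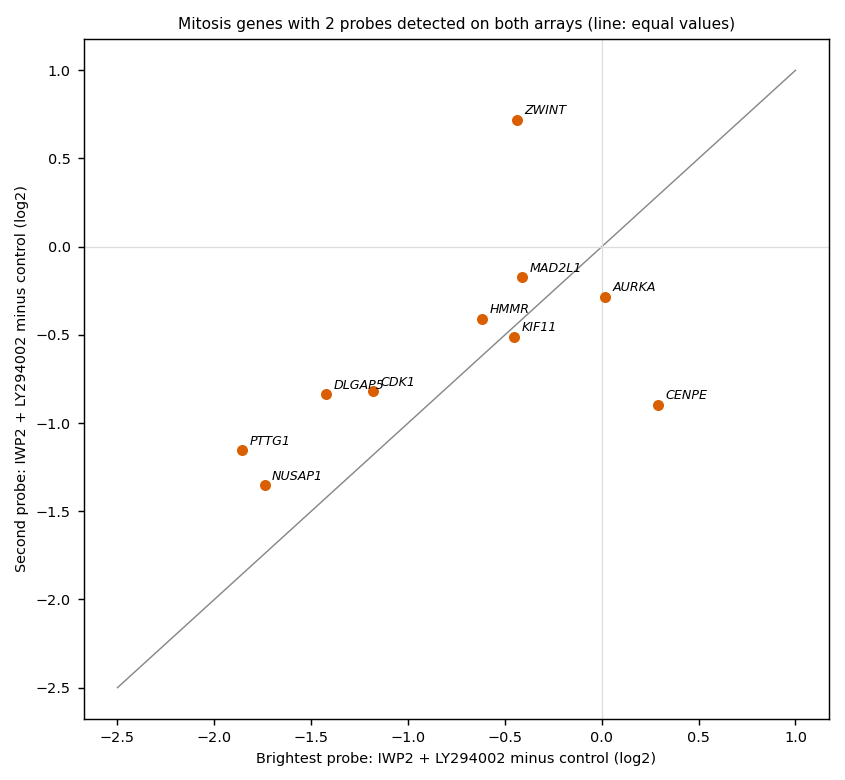
Log2 difference of IWP2 + LY294002 from control by the second probe (vertical) and the brightest probe (horizontal) for the 10 mitosis genes with 2 probes detected on both arrays, with a line at equal values. Both probes lie below 0 for 7 genes, and CENPE, ZWINT and AURKA have probes of opposite sign.

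Mitosis genes outside the 43 were read from a list with 59 measured genes. With both inhibitors 12 of its 34 members detected with both inhibitors and in the control were at least 2-fold lower (35.3%, against 10.9% of all genes) and 0 higher, with a median of -0.63, and 16 more were detected in the control alone (32.0% of those detected there, against 15.4% of all genes). The median of that list was -0.35 with IWP2, 0.07 with LY294002 and -0.03 with insulin. CDC25B, a phosphatase that activates CDK1, read 6.77 with IWP2, 6.31 with LY294002, 7.94 with insulin, 5.58 with both inhibitors and 8.48 in the control. CDCA5 (sororin), which protects cohesion, differed by -2.83 with both inhibitors. FAM83D, a spindle protein, was at least 5.93-fold lower, and HJURP, the chaperone of CENPA, at least 4.15-fold lower. Of 23 DNA replication genes detected with both inhibitors and in the control (36 measured), 7 were past 2-fold on the lower side (30.4%) and 0 on the higher side, with a list median of -0.49. GINS2 of the replicative helicase differed by -2.28, MCM7 by -1.57 and POLA2, a subunit of DNA polymerase alpha, by -1.51, and CDT1, a licensing factor, was at least 2.72-fold lower.

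**Figure D5:**
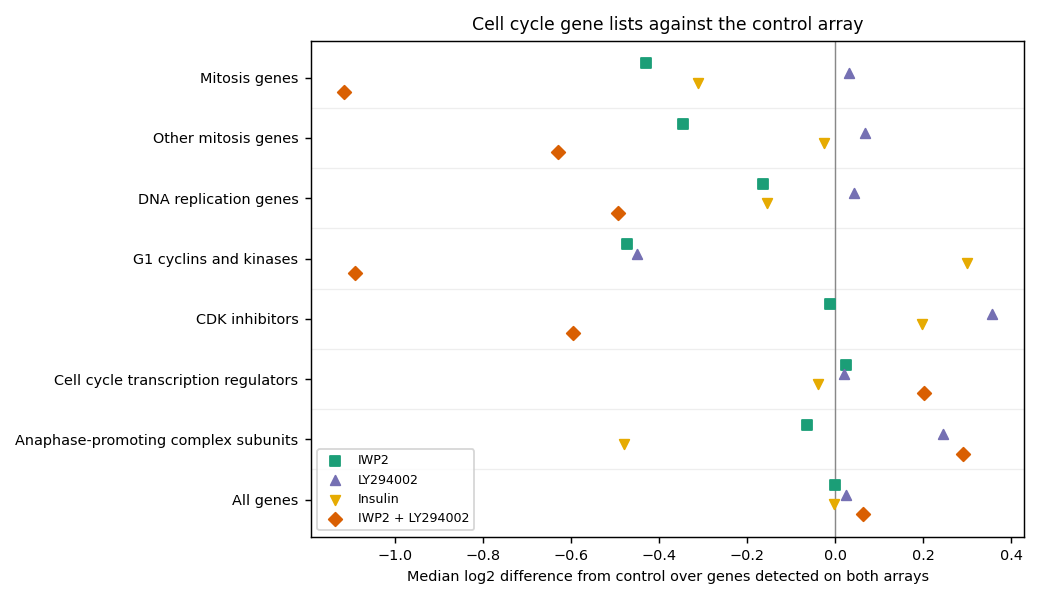
Median log2 difference from the control array over the genes of each list detected on both arrays (horizontal), for IWP2, LY294002, insulin and IWP2 + LY294002, 1 array each. The double-inhibitor medians are -1.12 for the mitosis genes, -0.63 for other mitosis genes, -0.49 for DNA replication genes and 0.06 for all genes.

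Markers of cell types differed between the same arrays. With both inhibitors 15 of 18 cardiomyocyte markers were detected, with a summed intensity of 64675, against 14 and 20935 in the control. All sums here are of intensities before normalization, whose 95th percentile ran from 470 (LY294002) to 815 (insulin). By normalized signal the median cardiomyocyte difference was 2.52 over 13 markers. Of these 11 were past 2-fold upward (84.6%, against 12% of all genes) and 0 downward (against 10.9%). NPPA (0.18) and NPPB (-0.03) lay near the control. SLN read 11.90 in the control and was not detected with both inhibitors, at least 87.1-fold lower. Of 15 liver and yolk sac endoderm markers 8 were detected with both inhibitors, with a summed intensity of 3492, against 15 and 115555 in the control, and ALB, APOA4, APOC3, FGG, AHSG, RBP4 and FOXA2 were not detected with both inhibitors. Fibroblast and matrix markers were detected in 5 of 12 cases with both inhibitors and 11 in the control, with summed intensities of 6909 and 37378. Of the markers detected in the control, 46.7% for liver and 54.5% for fibroblast were not detected with both inhibitors. Over all genes this share was 15.4%. On the LY294002 array, the dimmest of the 5, 14 of 15 liver and 11 of 12 fibroblast markers were detected, and the summed intensities were 47947 for cardiomyocyte, 6181 for liver and 8558 for fibroblast markers, beside a mitosis median of 0.03. Between the double-inhibitor and LY294002 arrays the median difference was -1.58 for liver and -2.29 for fibroblast markers detected on both. In each list 6 more were detected with LY294002 and not with both inhibitors (42.9% and 54.5%, against 8.9% of all genes). On the IWP2 array the sums were 64151, 32444 and 12675, beside a mitosis median of -0.43. On the insulin array they were 14550, 138260 and 44479, beside a mitosis median of -0.31. The part of these cell types in the mitosis values was not tested. Median raw intensities ran from 107 (LY294002) to 118 (insulin), with 116 on the double-inhibitor array and 115 in the control, so the double-inhibitor array was not the dimmest.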

How the data were processed

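Gene expression was measured on 5 Illumina BeadChip arrays, 1 for each treatment named in the labels. Intensities were deposited without normalization, each with a detection p-value, per the file headers. A table of log2 values that the authors deposited served as an alternative. Its values look quantile-normalized (column medians 5.013 to 5.017), and how it was made is not stated in the labels or files used here.

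Background was removed by normexp (controls inferred from the detection p-values), and signals were quantile-normalized and put on the log2 scale with an offset of 16 (neqc, limma 3.58.1, R 4.3.3). Later steps used Python 3.11.15 and pandas 2.3.3. Of the 47299 probes, 30106 had 1 gene symbol. The probe with the highest mean stood for its gene. A gene counted as 2-fold higher or lower where detected (p under 0.01) on both arrays. Where 1 array detected it, a bound was taken against the weakest detected probe of the other array or the gene's own signal there, whichever was higher. Counting was checked on simulated data. All members are named, and of each other list the 4 detected genes with the largest difference between the double-inhibitor and control arrays. FOXM1 and MYBL2 are named besides, as regulators of the members, and INCENP, as a subunit of the passenger complex. Members and lists were chosen with earlier results of these data known. The number of arrays limits the precision.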

Additional observations from a re-analysis of the deposited data

Results flagged for a closer look

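ANLN was the only member for which an inhibitor's difference ran in opposite directions, by at least 1.5-fold each way, without and with the other inhibitor. LY294002 was 0.64 above the control without IWP2, while adding it to IWP2 gave -0.85. IWP2 was 0.85 above the control without LY294002, while adding it to LY294002 gave -0.64. The difference between these effects was not tested, as each rests on 1 array a condition and all 4 values share the same 4 arrays.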

How the results depend on the processing

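No paired analysis was possible because each condition has 1 array. All 20 members at least 2-fold lower with both inhibitors stayed below the control under each of the 8 alternatives. Among these, both other detection settings leave the signals of the 20 as they are, so they could not move them. All 20 stayed past 2-fold under 75th percentile scaling, cyclic loess and the authors' deposited log2 values. With the mean over detected probes 18 did, with an offset of 50 16 did, and without background correction 12 did. Leaving out the background correction, which by construction keeps the background in both signals and so makes folds smaller, gave medians of -0.64 (both inhibitors), -0.22 (IWP2), -0.20 (insulin), -0.42 (both against IWP2) and -0.45 (two-by-two). It left 12 members lower with both inhibitors, 6 against IWP2 and 8 against LY294002, and 1 lower with IWP2, 0 with LY294002 and 0 with insulin. The single member higher with IWP2 became 0 under cyclic loess, the authors' deposited log2 values, an offset of 50 and no background correction. The 2 higher with LY294002 became 0 under these and under 75th percentile scaling. The single member lower with insulin became 2 under cyclic loess and 0 with an offset of 50. The two-by-two median was -0.43 under 75th percentile scaling. The LY294002 median was -0.17 under that scaling and -0.089 with the mean over detected probes, so its side of 0 is not settled. That scaling moved the share of higher among all calls to 34.0% with LY294002 (47.0% otherwise) and to 65.3% with insulin (47.6% otherwise). Except where a construction is named, the cause was not tested. Signal near background limits AURKB, CENPA, PLK1, KIF4A, SPC25 and KIF2C to bounds on the double-inhibitor array, and MKI67 to no reading.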

Other observations

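Other cell cycle genes were read from 4 further lists. With both inhibitors 6 of the 7 detected G1 cyclins and kinases were 2-fold lower or more and 0 higher (median -1.09), where 10.9% of all genes were lower and 12% higher. CCND1 (cyclin D1) read 8.97 with IWP2, 8.99 with LY294002, 10.40 with insulin, 7.52 with both inhibitors and 9.44 in the control. CCNE1 (cyclin E1) differed by -1.60, CDK2 by -1.33 and CCND2 (cyclin D2) by -1.09 with both inhibitors. The insulin array stood 0.96 above the control for CCND1 and 0.89 for CDK2, and the list's median with insulin was 0.30.

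Of 6 CDK inhibitor genes measured 3 were detected, and they differed in direction. CDKN1C (p57), an imprinted gene, read 8.79 with IWP2, 9.02 with LY294002, 11.23 with insulin, and 8.08 with both inhibitors. Its double-inhibitor difference from the control was -2.92. CDKN1A (p21) differed by -0.60 and CDKN1B (p27) by 0.66 with both inhibitors. With IWP2 alone CDKN1B was 1.04 above the control, and with LY294002 alone CDKN1A was 0.48 above it. Among 12 detected transcription regulators of the cell cycle 0 passed 2-fold with both inhibitors (median 0.20), where 10.9% of all genes were lower and 12% higher. FOXM1 differed by -0.58, and its reading with both inhibitors (5.48) was near the lowest detected signal of that array (5.46). MYBL2 was not detected with both inhibitors or in the control. LIN9, a MuvB subunit, was 0.97 and RBL2 (p130) 0.95 above the control, while E2F2 and LIN37 were not detected with both inhibitors, at least 2.34-fold and 1.54-fold lower. The 11 detected subunits of the anaphase-promoting complex had a median of 0.29 with both inhibitors, with 2 at least 2-fold higher (ANAPC16 by 1.20 and ANAPC4 by 1.06; 18.2%, against 12% of all genes) and 0 lower (against 10.9%). ANAPC10 differed by 0.84 and ANAPC1 by -0.72.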
